A study of Mus musculus with 12 samples.

Results

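The 34 genes described here encode enzymes that make cholesterol and fatty acids in mouse cells, with the proteins that sense and move sterols. They were taken by name from a list: 17 enzymes of sterol synthesis, 5 genes of sterol sensing, 3 of sterol transport and efflux, 3 of fatty acid synthesis, and 6 elongases and desaturases. Of the 34, 33 had a probe set that names 1 gene, out of 19938 genes measured in all; Acat2 had none and was not analysed here. Where a gene had more than 1 such probe set, the one with the highest mean was used, which applied to Idi1, Fdft1 and Acaca.

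The 12 arrays carried RNA of donor CD4+ T cells recovered from spleen and lymph node on day 2 of an acute graft-versus-host response, 4 arrays for each host treatment. The hosts had received TCDD, 15 µg/kg on day 0; Cl-BBQ, 2 mg/kg on days 0 and 1; or vehicle on days 0 and 1. In every group the donors were C57Bl/6 and the hosts B6D2F1 mice, 10 to 12 weeks old, and the sorted cells had divided at least 2 times by dilution of the dye CFSE. TCDD, a chlorinated dioxin, and Cl-BBQ both bind AhR, the aryl hydrocarbon receptor, which turns on target genes once a small molecule occupies it. Their doses and schedules differed, so they were not compared at a matched dose. The labels give 4 mice per group and call the arrays biological replicates. The compounds were given to the whole host, so effects on the donor T cells and on host cells cannot be told apart.

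Cells make cholesterol from acetyl-CoA through mevalonate, isoprenoids, squalene and lanosterol, and fatty acids from the same precursor through malonyl-CoA and palmitate. The SREBP transcription factors, encoded by Srebf1 and Srebf2, raise the genes of these routes when sterols in the endoplasmic reticulum are low. SCAP carries SREBPs out of that compartment, and INSIG proteins hold them back. T cells are known to raise these pathways after activation, when they need membrane for division.

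Values are log2 intensities, and differences are log2 differences of group means. A difference counted as called where its limma p, adjusted by Benjamini-Hochberg across the 19938 genes, was below 0.05. Array medians ran from 7.11 to 7.24, and levels of different probe sets are not comparable with each other. Cyp1b1, a known AhR target that shows exposure, was at 9.67 to 9.92 on the TCDD arrays, at 8.24, 7.89, 5.93 and 7.89 on Cl-BBQ replicates 1 to 4, and at 6.25 to 6.57 on the vehicle arrays. Cl-BBQ replicate 3 thus lay below every vehicle array in this gene and stood apart from its group. The mean of 5 AhR target genes (Cyp1b1, Cyp1a1, Ahrr, Tiparp and Nqo1) was 7.68, 7.60, 6.83 and 7.46 on Cl-BBQ replicates 1 to 4. On the vehicle arrays it was 6.77 to 6.93, and on the TCDD arrays 8.25 to 8.49. Medians of the sterol enzymes and the larger differences of single members that rest on the Cl-BBQ group are given with and without replicate 3. Counts of members by sign, by unadjusted p or by overlap are given with it only. T cell marker genes averaged 12.55 to 12.68 with TCDD, 12.51 to 12.73 with Cl-BBQ and 12.58 to 12.68 with vehicle, far above the array medians. In each comparison 0 of 6 were called. Of all genes 1.24% were called with TCDD, 0.196% with Cl-BBQ and 0.015% between the ligands, so 6 genes say little by this count.

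Elovl6 was the member that rose with TCDD. It encodes the elongase that turns palmitate into stearate. It was measured at 9.88, 9.83, 9.88 and 9.85 on the TCDD arrays, at 9.82, 9.81, 9.72 and 9.83 on the Cl-BBQ arrays, and at 9.61, 9.48, 9.45 and 9.46 on the vehicle arrays. All treated arrays lay above all vehicle arrays, an order with TCDD above vehicle that 3.15% of all genes showed, and with Cl-BBQ above vehicle 2.27%. With TCDD the mean was 9.86 ± 0.02 against 9.50 ± 0.07 with vehicle (SD, n = 4 each), 1.28-fold higher (log2 difference 0.36, 95% interval 0.23 to 0.49; limma adjusted p = 0.00477). With Cl-BBQ the mean was 9.80 ± 0.05 (SD, n = 4), 1.23 times vehicle (log2 difference 0.30, interval 0.17 to 0.43), which did not pass over all genes (limma adjusted p = 0.073). Both comparisons use the same 4 vehicle arrays. In bulk samples such as these, more cells with a transcript and more transcript per cell cannot be told apart.

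The call with TCDD held in all 17 alternative fits, with adjusted p from 0.00217 to 0.0352. With Cl-BBQ it was reached in 2 of 16, with adjusted p from 0.032 to 0.349; without replicate 3 the difference was 0.32 (limma adjusted p = 0.0807). Between TCDD and Cl-BBQ the Elovl6 difference was 0.06 (interval −0.07 to 0.19), so a gap of more than 0.19 in favour of TCDD lay outside its interval. The lowest TCDD array was level with the highest Cl-BBQ array to 2 decimals. The spread within groups was the smallest of the 33 members, at 0.05 (pooled SD), where the median over all genes was 0.11. Elovl6 was the 1 called member of 33 with TCDD; over all genes 1.24% were called, 0.873% in the higher direction. With Cl-BBQ 0 of 33 were called, against 0.196% of all genes, with 0.145% higher and 0.0502% lower. Of the 5 AhR target genes, 5 were called with TCDD and 0 with Cl-BBQ, where the lowest limma adjusted p was 0.0735, for Nqo1. A missing call with Cl-BBQ thus does not show that a gene did not respond. An unadjusted p under 0.05 in limma was met by 2 members with TCDD, both higher (4.69% of all genes were higher at that p and 4.0% lower). With Cl-BBQ it was met by 1 higher and 3 lower members (4.11% of all genes higher and 3.8% lower).

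**Figure D1:**
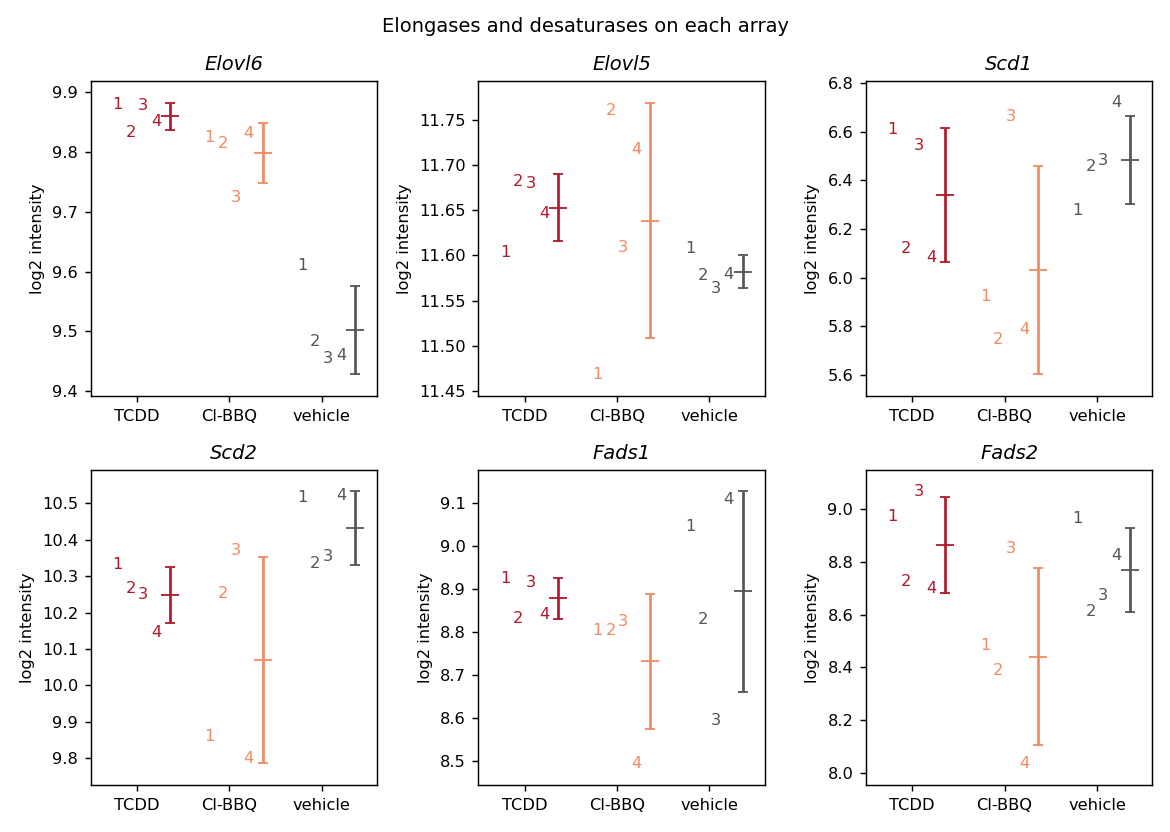
Log2 intensity (vertical axes) of 2 elongase and 4 desaturase genes on each array; digits are replicate numbers, and the bar beside each group gives mean and SD of 4 arrays. All TCDD and Cl-BBQ arrays lie above all vehicle arrays in Elovl6, and in Scd1, Scd2 and Fads2 the digit 3 is the highest of the Cl-BBQ arrays.

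The start of Elovl6 lies at chr3:129532386 on the forward strand (GRCm38.p6, RefSeq). Its promoter is shown because Elovl6 carries the called change, with the AhR core motif GCGTG in capitals. The window runs from 250 bases before the start to 10 after it.

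Elovl6: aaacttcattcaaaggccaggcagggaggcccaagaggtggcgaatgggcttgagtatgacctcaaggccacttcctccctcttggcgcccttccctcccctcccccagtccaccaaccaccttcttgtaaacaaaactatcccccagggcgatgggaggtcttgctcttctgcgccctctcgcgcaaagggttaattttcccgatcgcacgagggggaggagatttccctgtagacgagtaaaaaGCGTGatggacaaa

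The window, chr3:129532136-129532395, held 1 match to GCGTG, across the annotated start, and 0 matches on either strand to CCAAT, to the sterol regulatory motif TCACNCCAC or to the E-box CACGTG. The AhR core motif is short, and 40.5% of the 15614 measured genes with a promoter entry held it in at least 1 window of this length. The window was first set to the 250 bases before the start, where Elovl6 had no match to GCGTG and 39.4% of genes did, and was lengthened after the match across the start had been seen. The longer form TNGCGTG, held by 6.38% of genes, had no match in Elovl6 in either window.

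The stearoyl-CoA desaturases, which act on the product of Elovl6 by adding a double bond, were not called with either ligand. Scd1 was at 6.61, 6.12, 6.54 and 6.08 with TCDD, at 5.92, 5.75, 6.66 and 5.79 with Cl-BBQ, and at 6.28, 6.46, 6.48 and 6.72 with vehicle. Cl-BBQ replicates 1, 2 and 4 lay below every other array, and replicate 3 lay among the vehicle arrays. The Scd1 difference between Cl-BBQ and vehicle was −0.45 (interval −0.82 to −0.08; limma adjusted p = 0.525), and −0.66 without replicate 3 (limma adjusted p = 0.0524). Between TCDD and vehicle it was −0.14 (interval −0.51 to 0.23). Scd1 lay below the median of every array, and had the largest spread within groups of all members (pooled SD 0.31).

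Scd2 was at 10.33, 10.27, 10.25 and 10.15 with TCDD, at 9.86, 10.25, 10.37 and 9.80 with Cl-BBQ, and at 10.52, 10.34, 10.35 and 10.52 with vehicle. The TCDD arrays lay just below the vehicle arrays without overlap, whereas Cl-BBQ replicate 3 reached into the vehicle range. The difference was −0.18 with TCDD (interval −0.41 to 0.05; limma adjusted p = 0.707) and −0.36 with Cl-BBQ (interval −0.59 to −0.13; limma adjusted p = 0.3). Without Cl-BBQ replicate 3 the Cl-BBQ difference was −0.46 (limma adjusted p = 0.0861). Scd2 was the 1 member of 33 with TCDD arrays wholly below vehicle, against 2.65% of all genes. With Cl-BBQ 0 members lay wholly below vehicle, against 1.58%.

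Fads2, the desaturase that starts the conversion of dietary essential fatty acids to longer polyunsaturated ones, was at 8.97, 8.72, 9.07 and 8.70 with TCDD, at 8.48, 8.39, 8.85 and 8.04 with Cl-BBQ, and at 8.96, 8.61, 8.67 and 8.82 with vehicle. Here too 3 Cl-BBQ arrays lay below every other array and replicate 3 did not. The difference between Cl-BBQ and vehicle was −0.33 (interval −0.62 to −0.03; limma adjusted p = 0.589), and −0.46 without replicate 3 (limma adjusted p = 0.217). Fads1, the next desaturase of that route, averaged 8.88 ± 0.05 with TCDD, 8.73 ± 0.16 with Cl-BBQ and 8.89 ± 0.23 with vehicle (SD, n = 4 each). Elovl5, which lengthens polyunsaturated chains, averaged 11.65 ± 0.04 with TCDD, 11.64 ± 0.13 with Cl-BBQ and 11.58 ± 0.02 with vehicle.

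In Cl-BBQ replicate 3, the array with the lowest Cyp1b1, Scd1, Scd2, Fads1 and Fads2 were each the highest of the 4 Cl-BBQ arrays and Elovl6 was the lowest. The 4 desaturase genes, a group formed after their values were seen, averaged 8.27, 8.30, 8.68 and 8.03 on Cl-BBQ replicates 1 to 4, against 8.52 to 8.79 on the vehicle arrays. Over all genes this array was the highest of its group in 14.6% and the lowest in 20%. The low Cyp1b1 and these values were seen together on this array alone. On the TCDD arrays, where Cyp1b1 was highest, the 4 desaturase genes averaged 8.71, 8.49, 8.69 and 8.44. Elovl6 on Cl-BBQ replicate 3, at 9.72, still lay above the highest vehicle array, at 9.61. What part the Cyp1b1 level of that array has in these values was not tested.

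The 3 genes of fatty acid synthesis were not called in any comparison. Fasn, fatty acid synthase, was at 9.25, 9.20, 9.27 and 9.10 with TCDD, at 9.50, 9.07, 9.35 and 8.93 with Cl-BBQ, and at 9.62, 9.15, 9.40 and 9.34 with vehicle. The groups overlapped, and the difference was −0.17 with TCDD (interval −0.42 to 0.08) and −0.16 with Cl-BBQ (interval −0.41 to 0.08). Acaca, acetyl-CoA carboxylase, averaged 10.31 ± 0.08 with TCDD, 10.29 ± 0.23 with Cl-BBQ and 10.43 ± 0.21 with vehicle (SD, n = 4 each). Its second probe set gave differences of −0.09 with TCDD and −0.18 with Cl-BBQ, beside −0.12 and −0.14 from the first. Acly, which makes cytosolic acetyl-CoA from citrate, averaged 10.81 ± 0.04 with TCDD, 10.80 ± 0.08 with Cl-BBQ and 10.78 ± 0.14 with vehicle.

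No sterol enzyme was called with either ligand. With TCDD 0 of 16 were called, against 1.24% of all genes, and 12 lay above 0, with a median difference of 0.04 against 0.004 over all genes; with Cl-BBQ 0 were called, against 0.196% of all genes, and 2 lay above 0, with a median of −0.04 against 0.01. Above 0 lay 52.1% of all genes with TCDD and 54.8% with Cl-BBQ. Both medians moved with single vehicle arrays: without vehicle replicate 3 they were −0.00077 with TCDD and −0.11 with Cl-BBQ, and without vehicle replicate 1 they were 0.08 with TCDD and −0.0027 with Cl-BBQ. Without Cl-BBQ replicate 3 the Cl-BBQ median was −0.03. For the 16 enzymes the 95% intervals reached no further than 1.32-fold higher and 1.20-fold lower with TCDD, and 1.24-fold higher and 1.34-fold lower with Cl-BBQ. These intervals are those of single genes, not corrected for their number. An unadjusted p under 0.05 was met by 1 of the 16 with TCDD, where 8.69% of all genes met it, and by 0 with Cl-BBQ, where 7.91% did.

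Hmgcs1 supplies HMG-CoA, the first compound committed to this route in the cytosol. It was at 10.67, 10.84, 10.78 and 10.77 with TCDD, at 10.70, 10.61, 10.62 and 10.55 with Cl-BBQ, and at 10.81, 10.61, 10.46 and 10.66 with vehicle. All TCDD arrays lay above 3 of the 4 vehicle arrays (difference 0.13, interval −0.02 to 0.28), and the Cl-BBQ difference was −0.02 (interval −0.16 to 0.13). Mvd, which makes isopentenyl diphosphate, was at 8.54, 8.66, 8.50 and 8.71 with TCDD, at 8.36, 8.54, 8.54 and 8.58 with Cl-BBQ, and at 8.55, 8.49, 8.20 and 8.30 with vehicle. It had the largest difference of the sterol enzymes with TCDD, 0.22 (interval 0.03 to 0.40; limma adjusted p = 0.459), and the groups overlapped.

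Of the other enzymes up to farnesyl diphosphate, the kinase genes Mvk and Pmvk differed from vehicle by 0.03 and −0.06 with TCDD and by 0.06 and −0.11 with Cl-BBQ. Idi1, the isomerase of the isoprenoid unit, averaged 10.92 ± 0.10 with TCDD, 10.72 ± 0.30 with Cl-BBQ and 10.90 ± 0.12 with vehicle (SD, n = 4 each). Its second probe set gave differences of −0.03 with TCDD and −0.21 with Cl-BBQ, beside 0.02 and −0.18 from the first, so the sign differed with TCDD. Fdps, farnesyl diphosphate synthase, and Fdft1, which makes squalene, differed from vehicle by −0.03 and 0.04 with TCDD and by −0.06 and −0.003 with Cl-BBQ.

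In the later part of the route, Sqle, which oxidises squalene, was at 10.74, 10.78, 10.63 and 10.54 with TCDD, at 10.63, 10.43, 10.51 and 10.21 with Cl-BBQ, and at 10.77, 10.54, 10.36 and 10.66 with vehicle. Cl-BBQ replicate 4 was the lowest of all arrays. The Sqle difference was 0.09 with TCDD (interval −0.11 to 0.29) and −0.14 with Cl-BBQ (interval −0.34 to 0.07). Msmo1, which removes methyl groups from sterols, was at 10.66, 10.81, 10.66 and 10.65 with TCDD, at 10.56, 10.60, 10.51 and 10.31 with Cl-BBQ, and at 10.61, 10.50, 10.22 and 10.70 with vehicle. Vehicle replicate 3 was the lowest of all arrays, and the TCDD difference was 0.19 (interval −0.01 to 0.38).

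Ebp, a sterol isomerase, was at 10.24, 10.36, 10.43 and 10.34 with TCDD, at 10.01, 10.22, 10.20 and 10.26 with Cl-BBQ, and at 10.32, 10.24, 10.03 and 10.17 with vehicle. The groups overlapped, with a TCDD difference of 0.15 (interval −0.01 to 0.31). Hsd17b7, a sterol ketone reductase, was at 8.87, 9.11, 9.11 and 9.38 with TCDD, at 8.87, 8.89, 8.96 and 8.81 with Cl-BBQ, and at 9.21, 9.09, 8.84 and 9.20 with vehicle. The Cl-BBQ arrays were close together, at the low end of the vehicle arrays, with a difference of −0.20 (interval −0.42 to 0.02), or −0.23 without replicate 3. Lss, Nsdhl, Sc5d and Dhcr7, which act between squalene epoxide and cholesterol, differed from vehicle by −0.03 to 0.07 with TCDD and by −0.15 to −0.02 with Cl-BBQ.

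**Figure D2:**
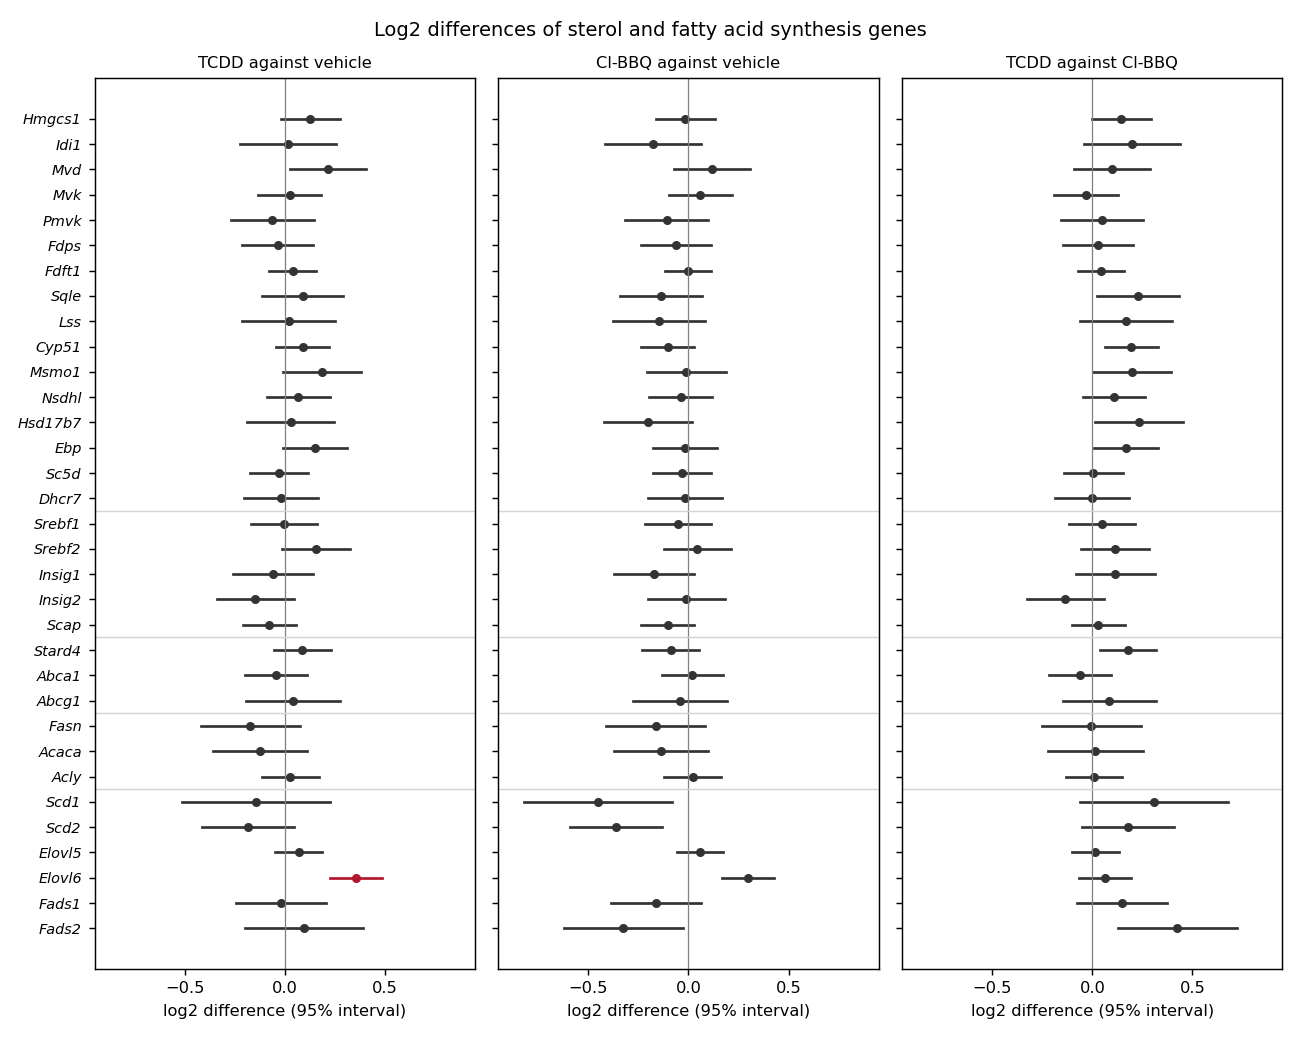
Log2 difference with its 95% interval (horizontal axes) for the 33 measured genes, grouped by role from sterol enzymes at the top to elongases and desaturases at the bottom, in 3 comparisons. Red marks the called difference, that of Elovl6 with TCDD; in the panel of TCDD against Cl-BBQ, 14 of the 16 sterol enzymes lie to the right of 0.

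The promoters of the sterol enzymes shared a feature that their choice did not use. The CCAAT box, bound by the factor NF-Y, is known to work beside SREBP sites in genes of this route. Of 13 measured sterol enzymes with a RefSeq promoter entry, 13 held CCAAT on either strand between 250 bases before and 10 after an annotated start, where 39.5% of 15614 measured genes did. For Pmvk and Dhcr7 this held for 1 of their several starts. Among the 12 other members with an entry, 6 held it. The strict sterol regulatory motif TCACNCCAC was found in Hmgcs1 alone of 25 members with an entry, against 1.24% of all those genes; CACGTG in 7 of 25, against 8.56%; and GCGTG in 15 of 25, against 40.5%. No matches of different motifs overlapped in the members' windows. A match describes letters, not binding. In the first window of 250 bases CCAAT was likewise in 13 of 13, against 38.8% of genes. There GCGTG was in 14 of 25 members, against 39.4% of genes, and Elovl6 was not among them. Insig2, Dhcr7 and Scap held GCGTG at some of their starts only. Of 6 motifs searched, a longer form of the sterol motif had no match in a member, and TNGCGTG had one in 1 member and in no sterol enzyme; the motifs were chosen with sequences and values in view.

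Windows of 3 sterol enzymes are shown to compare the number and placing of these boxes. Capitals mark CCAAT or its reverse ATTGG, the motif TCACNCCAC in Hmgcs1, and GCGTG in Cyp51. The windows are chr13:119690101-119690360 (Hmgcs1, forward strand), chr5:114444019-114444278 (Mvk, forward strand) and chr5:4104688-4104947 (Cyp51, reverse strand), all GRCm38.p6 from RefSeq.

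Hmgcs1: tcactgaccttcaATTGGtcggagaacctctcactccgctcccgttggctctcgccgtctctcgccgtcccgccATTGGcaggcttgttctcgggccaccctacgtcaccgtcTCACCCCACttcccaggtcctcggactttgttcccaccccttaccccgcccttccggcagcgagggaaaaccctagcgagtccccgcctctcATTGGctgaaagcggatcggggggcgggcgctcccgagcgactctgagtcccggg
Mvk: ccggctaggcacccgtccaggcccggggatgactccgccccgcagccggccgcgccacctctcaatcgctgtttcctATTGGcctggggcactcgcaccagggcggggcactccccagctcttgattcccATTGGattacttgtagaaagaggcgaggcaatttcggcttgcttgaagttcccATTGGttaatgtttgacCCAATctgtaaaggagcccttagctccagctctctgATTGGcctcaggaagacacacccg
Cyp51: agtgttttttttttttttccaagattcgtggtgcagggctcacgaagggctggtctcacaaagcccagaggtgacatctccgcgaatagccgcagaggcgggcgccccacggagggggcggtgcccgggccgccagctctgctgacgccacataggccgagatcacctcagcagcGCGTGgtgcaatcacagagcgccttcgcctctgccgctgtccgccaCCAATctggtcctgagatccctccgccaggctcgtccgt

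Hmgcs1 held 3 CCAAT boxes with 1 sterol motif between them, Mvk held 5 boxes, and Cyp51 held 1 box close to the start with 1 AhR core motif before it.

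The genes that sense sterols were not called either. Srebf2, the SREBP that mainly drives sterol synthesis, was at 10.36, 10.55, 10.43 and 10.57 with TCDD, at 10.14, 10.46, 10.40 and 10.45 with Cl-BBQ, and at 10.41, 10.40, 10.25 and 10.23 with vehicle. Its TCDD difference was 0.16 (interval −0.01 to 0.33; limma adjusted p = 0.627) and its Cl-BBQ difference 0.04 (interval −0.12 to 0.21). Srebf1, which mainly drives fatty acid synthesis, was at 8.92, 8.92, 8.80 and 8.93 with TCDD, at 8.68, 8.85, 8.91 and 8.93 with Cl-BBQ, and at 9.03, 8.90, 8.78 and 8.87 with vehicle. The TCDD and vehicle means of Srebf1 were both 8.89, and the interval of their difference ran from −0.17 to 0.16.

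Insig1, itself a target of SREBPs, was at 10.76, 10.81, 10.85 and 10.79 with TCDD, at 10.60, 10.82, 10.69 and 10.64 with Cl-BBQ, and at 10.93, 10.81, 10.54 and 11.14 with vehicle. The vehicle arrays enclosed all others, and the difference was −0.06 with TCDD (interval −0.26 to 0.14) and −0.17 with Cl-BBQ (interval −0.37 to 0.03). Insig2 and Scap differed from vehicle by −0.15 and −0.08 with TCDD and by −0.01 and −0.10 with Cl-BBQ.

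The efflux pump genes Abca1 and Abcg1, targets of the sterol-activated LXR receptors, overlapped between all groups. Abca1 was at 6.87, 6.87, 6.77 and 6.81 with TCDD, at 6.93, 6.98, 6.77 and 6.88 with Cl-BBQ, and at 6.72, 7.03, 6.82 and 6.92 with vehicle, and lay below the median of every array. Abcg1 was at 9.58, 9.53, 9.37 and 9.48 with TCDD, at 9.01, 9.62, 9.40 and 9.59 with Cl-BBQ, and at 9.51, 9.53, 9.42 and 9.33 with vehicle. Their differences from vehicle were −0.04 and 0.04 with TCDD, and 0.02 and −0.04 with Cl-BBQ. Stard4, a sterol carrier within the cell, was at 10.60, 10.68, 10.57 and 10.58 with TCDD, at 10.38, 10.48, 10.55 and 10.31 with Cl-BBQ, and at 10.65, 10.48, 10.43 and 10.51 with vehicle. Its differences from vehicle were 0.09 with TCDD and −0.09 with Cl-BBQ.

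Set directly against Cl-BBQ, TCDD gave higher values for most members, none of them past the test over all genes (0 of 33 called, 0.015% of all genes called; lowest limma adjusted p among members above 0.99). Of the 33, 28 lay above 0, and of the 16 sterol enzymes 14 did, where 48.0% of all genes did. The median sterol enzyme difference was 0.13, against −0.003 over all genes, and it ran from 0.09 to 0.15 as each array was left out. It was 0.13 without Cl-BBQ replicate 3, and 0.11 without Cl-BBQ replicates 3 and 4, an alternative chosen after seeing the data. An unadjusted p under 0.05 was met by 7 of the 33 in the higher direction, where 1.62% of all genes met it, and by 0 in the lower direction, where 1.37% did (2.99% in either). The 33 genes share arrays and, in part, regulators, so these counts are not those of independent genes.

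Cyp51, which demethylates lanosterol, had the smallest unadjusted p of these. It was at 11.66, 11.60, 11.57 and 11.60 with TCDD and at 11.51, 11.37, 11.55 and 11.23 with Cl-BBQ, beside 11.60, 11.56, 11.45 and 11.45 with vehicle. TCDD lay above Cl-BBQ without overlap, with a difference of 0.19 (interval 0.06 to 0.33), and the vehicle mean lay between theirs. Fads2 differed by 0.42 (interval 0.13 to 0.72), and by 0.56 without Cl-BBQ replicate 3. Stard4 differed by 0.18 (interval 0.04 to 0.32), Sqle by 0.23 (interval 0.02 to 0.43) and Hsd17b7 by 0.23 (interval 0.01 to 0.45). Without Cl-BBQ replicate 3 the differences were 0.24 for Cyp51, 0.22 for Stard4, 0.25 for Sqle and 0.26 for Hsd17b7. TCDD arrays lay wholly above Cl-BBQ arrays in 5 of 33 members, against 1.24% of all genes, and wholly below in 0, against 0.797%. Among these 5 were near ties in Elovl6 and Fads1. The lowest TCDD array was at 9.832 in Elovl6 and 8.832 in Fads1, the highest Cl-BBQ array at 9.831 and 8.824. Same-numbered TCDD and Cl-BBQ arrays correlated in their deviations. Arrays of different numbers were not compared, so this does not show that the numbers pair them. The fit with the replicate number as a block also called 0 members.

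Proliferation genes lay the same way by small amounts: 13 of 15 lay above 0 in TCDD against Cl-BBQ, with a median difference of 0.06. Of these 0 were called, against 0.015% of all genes. They averaged 11.83 to 11.93 on the TCDD arrays and 11.70 to 11.90 on the Cl-BBQ arrays. Cl-BBQ replicate 4 had the lowest mean of its group in the sterol enzymes and in the proliferation genes. Other arrays differed. TCDD replicate 1 had the lowest sterol enzyme mean of its group (10.15) and the highest proliferation mean (11.93). Cl-BBQ replicate 1 had the highest proliferation mean of its group (11.90) beside a sterol enzyme mean of 10.05. Among vehicle arrays replicate 3 was lowest in the sterol enzymes and replicate 2 in the proliferation genes. What part proliferation has in the sterol values was not tested.

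Within groups, single arrays were low or high across many sterol enzymes at once. These counts were made after the values were seen. The mean of the 16 was 10.15, 10.24, 10.18 and 10.21 on the TCDD arrays, 10.05, 10.14, 10.11 and 10.02 on the Cl-BBQ arrays, and 10.26, 10.13, 9.96 and 10.20 on the vehicle arrays. The vehicle range thus enclosed every treated array, and its SD was 0.13 against 0.04 with TCDD and 0.06 with Cl-BBQ. Vehicle replicate 3 was the lowest vehicle array in 14 of the 16, though it was the lowest in 30.1% of all genes, and vehicle replicate 1 was the highest in 10 of 16, against 24.9% of all genes. In the 16 enzymes the median deviation from the vehicle mean was −0.18 on replicate 3 and 0.13 on replicate 1, against −0.01 and 0.01 over all genes. Of the 5 sensing genes, 4 were lowest on vehicle replicate 3, and Srebf2 was lowest on replicate 4.

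Cl-BBQ replicate 4 was the lowest of its group in 8 of the 16 enzymes, among them Hmgcs1, Idi1, Sqle, Cyp51 and Msmo1, against 19.9% of all genes. Cl-BBQ replicate 1 was the lowest in 7 others, among them Mvk, Pmvk, Nsdhl and Dhcr7, against 35.2% of all genes. These sets do not share a gene, since each gene has 1 lowest array per group. Among vehicle arrays Fasn and Acaca were highest on replicate 1, as were 10 of the 16 sterol enzymes, and lowest on replicate 2.

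**Figure D3:**
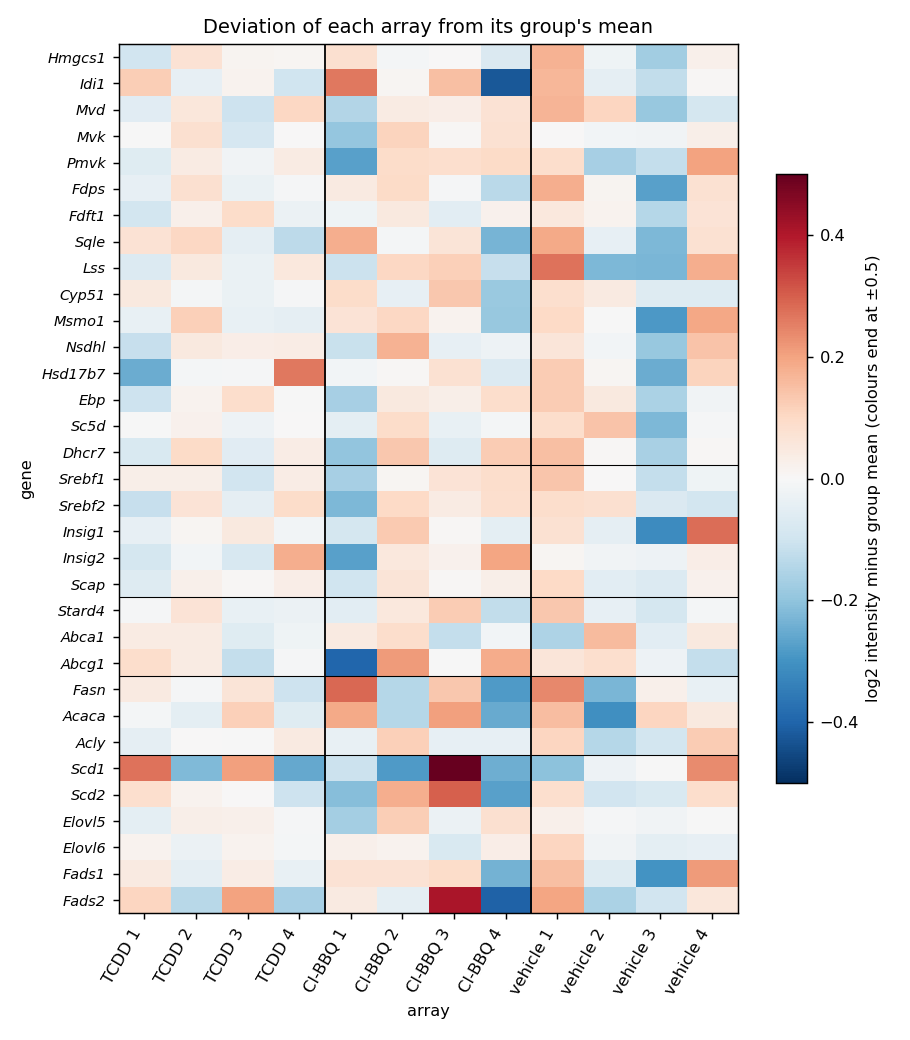
Log2 intensity of each array minus the mean of its own group, by gene (vertical axis) and array (horizontal axis, TCDD, Cl-BBQ and vehicle from left to right); red is above and blue below the group mean. The blue column of vehicle 3 runs through 14 of the 16 sterol enzymes where it is the lowest vehicle array, and the red fields of Cl-BBQ 3 mark Scd1, Scd2 and Fads2.

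Other genes of the same pathways gave 1 call in 48 with TCDD, where 1.24% of all genes were called. Among 20 measured genes of sterol synthesis, sensing, uptake and oxysterol metabolism, Lbr rose with TCDD; it encodes the lamin B receptor, a protein of the nuclear envelope that is also a sterol reductase of this route. Lbr was at 11.92, 11.98, 11.95 and 12.04 with TCDD, at 11.83, 11.81, 11.90 and 11.83 with Cl-BBQ, and at 11.86, 11.66, 11.76 and 11.64 with vehicle, 1.18-fold higher with TCDD than with vehicle (log2 difference 0.24, interval 0.14 to 0.35; limma adjusted p = 0.0203). Among 28 genes of fatty acid supply, elongation, activation and storage, 0 were called with either ligand (1.24% of all genes with TCDD and 0.196% with Cl-BBQ). Chosen after its values were seen, Elovl7, an elongase of very long chains, had a TCDD difference of −0.51 (interval −0.81 to −0.22; limma adjusted p = 0.118). It was the 1 lower gene of the 28 at an unadjusted limma p under 0.05. Elovl1, Dgat1 and Acss2 were higher at that p, by 0.20, 0.21 and 0.29. Of all genes 4.69% were higher and 4.0% lower at that p with TCDD. Between TCDD and Cl-BBQ, 0 of the 48 were called, against 0.015% of all genes.

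Among markers of cells that the sort should remove, 3 were called lower with TCDD, Cd22, Bank1 and Cd74, and each differed by more than Elovl6 did. B cell genes averaged 6.70 to 6.84 with TCDD, 6.74 to 6.87 with Cl-BBQ and 6.83 to 7.12 with vehicle. With TCDD 2 of 7 were called lower, Cd22 and Bank1 (difference of Bank1 −0.48), where 0.366% of all genes were. The list did not fall as a set, since 3 of the 7 lay above 0 with TCDD, by up to 0.23. Among them Cd79b was higher at an unadjusted limma p under 0.05, which 4.69% of all genes met in that direction. Cd22, a lectin of B cells that is shown because its values had been seen, was at 7.06, 7.30, 7.13 and 6.96 with TCDD, at 7.32, 7.31, 7.77 and 7.38 with Cl-BBQ, and at 7.91, 8.26, 7.59 and 8.52 with vehicle, a TCDD difference of −0.95. Myeloid and dendritic cell genes averaged 6.67 to 6.78 with TCDD, 6.72 to 6.80 with Cl-BBQ and 6.76 to 6.82 with vehicle. With TCDD 1 of 12, Cd74, was called lower (difference −0.43), and 5 of the 12 lay above 0. The limma adjusted p of Bank1 was 0.0947 after median centring and 0.0724 after quantile normalization, and that of Cd74 0.0815 and 0.0693. Neutrophil genes averaged 5.77 to 5.95 with TCDD, 5.78 to 6.00 with Cl-BBQ and 5.74 to 5.89 with vehicle, and NK cell genes 6.03 to 6.22 with TCDD, 5.82 to 6.25 with Cl-BBQ and 6.10 to 6.28 with vehicle. The 2 measured erythroid genes averaged 7.12 to 7.28 with TCDD, 7.22 to 7.37 with Cl-BBQ and 7.10 to 7.38 with vehicle, and the 2 CD8 genes 8.37 to 8.70 with TCDD, 8.32 to 8.54 with Cl-BBQ and 8.36 to 9.18 with vehicle. Of these 4 lists 0 genes were called in any comparison, where 1.24% of all genes were called with TCDD, 0.196% with Cl-BBQ and 0.015% between the ligands. The part of these shifts in the Elovl6 and Lbr differences was not tested.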

How the data were processed

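Each of 12 arrays gave log2 intensities that the authors made by robust multi-array averaging (RMA), per the submitters' processing notes; the log2 scale was read from the deposited values (2.49 to 14.16), while the sources used here do not give the probe library or which arrays were normalized together. Of 35556 probe sets, 21789 name 1 gene; the one with the highest mean per gene left 19938 genes, and no dim gene was removed.

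One limma model (version 3.58.1, R 4.3.3) held all 3 groups, with an intensity trend, 9 residual degrees of freedom and two-sided tests, and checked on simulated data. Gene names come from the platform's probe table, and promoters from RefSeq (GRCm38.p6). Every array is given for members called, for the 5 of smallest p in each comparison and for 10 fixed members; of other pathway genes, those called are named. Elovl7, Elovl1, Dgat1, Acss2, Cd22, Cd79b, Cyp1a1, Ahrr, Tiparp and Nqo1 are named although the rule did not pick them. The members, lists and motifs were chosen with earlier results of these data known. For arrays, their number limits the precision.

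Replicate numbers were checked for pairing on deviations from group means. Same-numbered TCDD and Cl-BBQ arrays correlated at 0.606, 0.113, 0.157 and 0.365, all over 0.1, and pairs with vehicle arrays did not all do so. Arrays of different numbers were not correlated, so the check cannot settle whether the numbers pair arrays. The labels call the arrays biological replicates, and the p-values set differences of group means against the spread between arrays within groups. Alternatives were median centring, quantile normalization, a filter on dim genes, no trend, fits of the groups compared alone, array weights, means of probe sets, a replicate block and leaving out each array. Figures were drawn with matplotlib 3.10.9.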

Additional observations from a re-analysis of the deposited data

Results flagged for a closer look

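In 7 of 102 sets of 4 arrays (33 genes and the mean of the sterol enzymes, in 3 groups), 1 array stood far from the other 3 by Dixon's criterion, which chance meets in about 1 of 20. Among TCDD arrays these were Msmo1 at 10.81 on replicate 2 (others 10.65 to 10.66), Nsdhl at 11.13 on replicate 1 (others 11.28 to 11.29) and Srebf1 at 8.80 on replicate 3 (others 8.92 to 8.93). Among Cl-BBQ arrays they were Pmvk at 9.02 on replicate 1 (others 9.38 to 9.39), Acly at 10.92 on replicate 2 (others 10.76 to 10.77), Elovl6 at 9.72 on replicate 3 (others 9.81 to 9.83) and Fads1 at 8.49 on replicate 4 (others 8.80 to 8.82). The Elovl6 value is that of the array with the lowest Cyp1b1.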

How the results depend on the processing

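The Elovl6 call with TCDD was kept, as the 1 called member, in all alternatives run. With Cl-BBQ the count of called members was 1, Elovl6, in place of 0 after quantile normalization and with the replicate block and 0 in the other alternatives. Between TCDD and Cl-BBQ it was 0 throughout. With the replicate block the limma adjusted p of Elovl6 was 0.00461 with TCDD and 0.0476 with Cl-BBQ. Same-numbered treated and vehicle arrays did not all correlate above 0.1. Counts over all genes moved more: 247 with TCDD became 160 after median centring, 391 with array weights, 397 with the replicate block and 150 to 227 as each array was left out. With Cl-BBQ 39 became 8 after median centring, 18 without a trend, 11 from the 2 groups alone, 71 after quantile normalization, 111 with the block and 3 to 61 as each array was left out. Between the ligands 3 became 9 with array weights, 5 with the block, 0 without a trend, from the 2 groups alone or after quantile normalization, and 0 to 7 as each array was left out. As each array was left out, the median sterol enzyme difference ran from −0.00077 to 0.081 with TCDD, where it changed sign without vehicle replicate 3, from −0.11 to −0.0027 with Cl-BBQ, and from 0.091 to 0.15 between the ligands. The fit of TCDD against vehicle without Cl-BBQ replicate 3, chosen after seeing the data, also called 1 member, and 226 of all genes.

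Members near 0 changed sign without a call. In TCDD against vehicle, Srebf1 was 0.0082 after median centring and 0.038 after quantile normalization, and with each array left out ran from −0.041 to 0.045; Abca1 ran from −0.094 to 0.0097 and Insig1 from −0.16 to 0.036. In Cl-BBQ against vehicle after quantile normalization, Hmgcs1 was 0.0042 and Abca1 −0.0018; with each array left out, Abca1 ran from −0.032 to 0.072, Abcg1 from −0.11 to 0.090, Hmgcs1 from −0.075 to 0.042 and Srebf1 from −0.091 to 0.0036. In TCDD against Cl-BBQ, Fasn was 0.018 after median centring and ran from −0.10 to 0.090, Abcg1 from −0.047 to 0.16 and Srebf1 from −0.0049 to 0.082. The cause was not tested.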
